A study of Mus musculus with 2 samples.

Results

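The 10 genes described here encode chaperones of the endoplasmic reticulum (ER) and factors of the integrated stress response. They were chosen by gene name, as Hspa5, Hsp90b1, Pdia4, Dnajb9, Herpud1, Xbp1, Atf4, Ddit3, Trib3 and Asns, among the 30649 gene names of the table. The mRNA came from interscapular brown adipose tissue (BAT) of Taf7l knockout (KO) and wild-type (WT) mice on a C57BL/6 background (C57BL/6J in the methods of the study), and Taf7l encodes a TBP-associated factor of TFIID. RNA of 6 mice was pooled for each genotype, so there was 1 Taf7l KO library and 1 WT library, and no difference has a replicate check, SD or p-value. One label field puts the mice of both genotypes at 1 month of age, whereas a different field puts the KO mice at 3 months. If the second is right, age and genotype cannot be told apart. Levels are FPKM, fragments scaled by transcript length and by the mapped reads of the library, summed over the rows of a gene name. Genes reaching 1 FPKM in either library, 12171 in all, entered the comparison, made as log2((KO + 0.1)/(WT + 0.1)), which understates the change of low genes, and all 10 genes were among them.

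The ER folds secreted and membrane proteins with the help of lumenal chaperones. When unfolded proteins build up, the sensors IRE1, PERK and ATF6 start the unfolded protein response: IRE1 splices Xbp1 mRNA, ATF6 is cut to a transcription factor, and PERK phosphorylates eIF2. Phosphorylated eIF2, also made by kinases that sense amino acid lack, heme lack or viral RNA, lowers general translation while Atf4 mRNA is translated more, and this branch is the integrated stress response. Brown adipocytes secrete hormones and handle large lipid fluxes through the ER, and the response has been studied in them in cold and in obesity. Much of the control of Xbp1 and Atf4 is after transcription, so the mRNA level of these genes is not a readout of their protein.

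Promoter windows of the genes are shown because different sequence elements carry the response to ER stress and the response through ATF4. Windows of 250 bases before to 50 bases after the RefSeq start (GRCm38.p6) were found for all 10 genes and searched on both strands, with positions counted from that start. The gene spans given further below are from GENCODE, and their starts differ from those of RefSeq. The stretch of Dnajb9 printed here lies inside its GENCODE span, so positions depend on the start chosen. The ER stress response element, a site of ATF6 and NF-Y, was searched as CCAAT and CCACG with 9 bases of any kind between them and occurred in 0.119% of 32851 mouse windows. It was present at positions -65 to -47 of Hspa5 and at -212 to -194 and -107 to -89 of Hsp90b1. The related element ERSE-II, searched as ATTGG and CCACG with 1 base of any kind between them, occurred in 0.0365% of windows and at -52 to -42 of Herpud1. The core of the C/EBP-ATF response element, a site of ATF4, was searched as TGATGNAA and occurred in 3.97% of windows. It was present at -112 to -105 of Herpud1, at -23 to -16 of Asns and at 15 to 22 of Trib3. One element bound by XBP1, searched as TGACGTGG, occurred in 0.676% of windows and in none of the 10. A window without these letters may still hold a site of XBP1. CCAAT alone, which is contained in both ER stress elements, occurred in 37.4% of windows and in 7 of the 10. In the first line below the capitals are the ER stress response element of Hspa5, in the second both such elements of Hsp90b1, in the third the CCAAT of Dnajb9, and in the fourth the C/EBP-ATF core and then ERSE-II of Herpud1. In the last lines the capitals are the C/EBP-ATF core of Asns and Trib3.
Hspa5, chr2:34771960-34772059, plus strand: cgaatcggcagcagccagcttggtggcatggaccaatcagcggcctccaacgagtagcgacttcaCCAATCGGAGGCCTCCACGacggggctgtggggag
Hsp90b1, chr10:86705530-86705669, minus strand: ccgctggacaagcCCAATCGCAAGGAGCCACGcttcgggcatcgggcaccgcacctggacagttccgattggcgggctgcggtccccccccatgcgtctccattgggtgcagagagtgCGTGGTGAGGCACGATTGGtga
Dnajb9, chr12:44210099-44210198, minus strand: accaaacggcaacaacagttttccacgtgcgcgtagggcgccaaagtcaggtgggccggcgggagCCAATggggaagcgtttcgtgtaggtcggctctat
Herpud1, chr8:94386299-94386398, plus strand: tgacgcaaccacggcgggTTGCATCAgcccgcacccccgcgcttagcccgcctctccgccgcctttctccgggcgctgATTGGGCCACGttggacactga
Asns, chr6:7693210-7693299, minus strand: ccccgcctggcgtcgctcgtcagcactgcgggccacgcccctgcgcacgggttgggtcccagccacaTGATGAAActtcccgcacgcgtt
Trib3, chr2:152344031-152344060, minus strand: agattagctcaggtTTACATCAgccgggcg
These matches describe the letters in the windows and do not show that a factor was bound in BAT.

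Of the 10 genes, only Dnajb9 was at least 1.5-fold lower in Taf7l KO BAT and none was higher by 1.5-fold. The median log2 ratio of the 10 was -0.039. Among all genes compared, 12.7% lay at least 1.5-fold below WT and 16.5% at least 1.5-fold above it, and their median was 0.010. None of the 10 reached 3-fold in either direction, against 0.403% of all genes lower and 2.05% higher by that much. The log2 ratios ran from -0.74 for Dnajb9 to 0.37 for Ddit3, with 6 genes lower and 4 higher in KO, although Herpud1 and Asns were above 0 with libraries scaled to equal FPKM sums, Xbp1 was below 0 with its highest row alone, and Xbp1 (-0.029) and Asns (0.13) changed sign after correction for GC content and length. Within 1.2-fold of WT were 6 of the 10, against 36.7% of all genes compared, and the median size of the log2 ratio was 0.17 for the 10 and 0.37 for all genes. Neither share was tested, since genes are not replicates of a genotype.

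**Figure D1:**
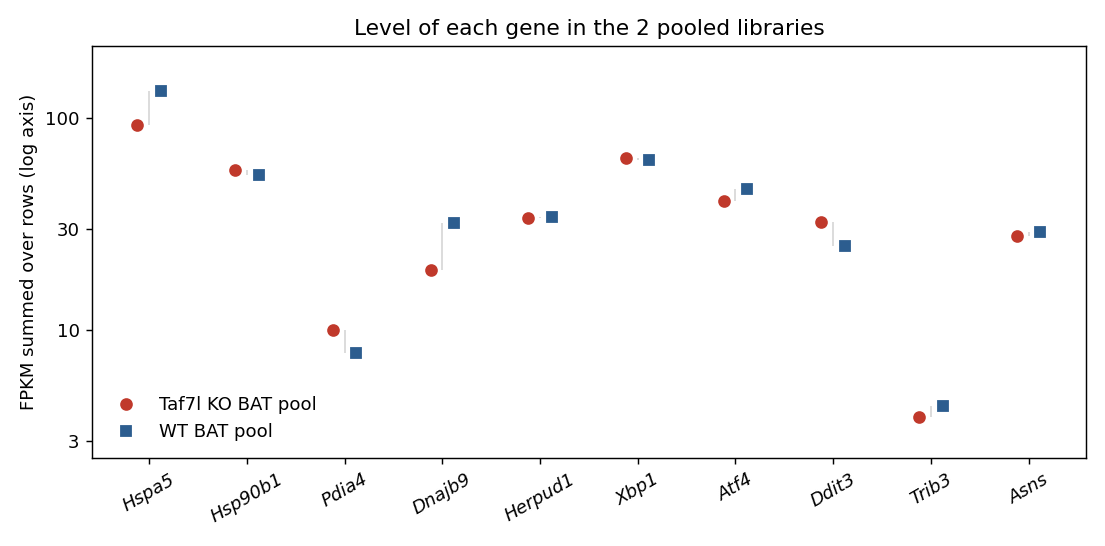
FPKM of each of the 10 genes in the Taf7l KO pool (circles) and in the WT pool (squares), on a log axis. The points of a gene lie close together except for Hspa5 and Dnajb9, which were lower in KO, and Pdia4 and Ddit3, which were higher.

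The depth of the libraries was estimated from the steps between low FPKM values as 78318598 mapped reads for KO and 25815758 for WT, and 80.3% of 249 low values in KO and 84.0% of 256 in WT were whole reads to within a tolerance of 0.05. The 10 genes then had about 563 to 17576 reads each in KO and 209 to 8385 in WT. Intervals given below are 95% exact binomial (Clopper-Pearson) intervals of the fold on these estimated reads. They cover counting error only, not the spread between mice or pools. By this measure 6 of the 10 folds excluded 1 and 4 included it. At these read numbers even the fold of 1.06 for Hsp90b1 was among the 6. Such intervals were not made for the other genes compared, so the count has no share of all genes beside it. Taf7l itself was at 0.00734 FPKM in KO, against 0.0222 FPKM in WT, too low to check the genotype labels.

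The libraries also differed in the tissue they held, which is given here once for all the results below. All 12 skeletal muscle markers were at least 3-fold higher in KO, with a summed level of 1963 FPKM in KO, against 112 FPKM in WT and log2 ratios from 2.75 to 5.40. Of 6 brown fat markers, 5 were at least 1.5-fold lower in KO. The remaining marker, Prdm16, went the other way, with a log2 ratio of 0.58 that was just short of the 1.5-fold limit. Brown fat markers summed to 5017 FPKM in KO, against 11255 FPKM in WT, so that as a sum they were abundant in both. Ucp1 had 1639 FPKM in KO, against 3720 FPKM in WT. Markers of plasma and B cells, which are rich in ER, summed to 2.23 FPKM in KO, against 3.30 FPKM in WT over 5 genes, none of them at 0. Macrophage markers summed to 40.3 FPKM in KO, against 38.3 FPKM in WT (4 genes), with C1qa at 26.1 FPKM in KO, against 28.7 FPKM in WT, while Cd68 and Csf1r lay more than 1.5-fold above WT in KO (median log2 ratio of the list, 0.30). Endothelial markers summed to 83.7 FPKM in KO, against 71.0 FPKM in WT (4 genes) and Schwann cell markers to 21.3 FPKM in KO, against 29.0 FPKM in WT (3 genes). Fibroblast markers summed to 94.9 FPKM in KO, against 61.4 FPKM in WT (5 genes), with 2 at least 1.5-fold higher and 1 lower. Markers of all fat cells summed to 12296 FPKM in KO, against 21359 FPKM in WT (4 genes), mostly from Fabp4 with 10713 FPKM in KO, against 19657 FPKM in WT. Their median log2 ratio was -0.0081, Pparg was higher with 191 FPKM in KO, against 137 FPKM in WT, and Fabp4 stood at 0.12 after correction for GC content and transcript length. In bulk RNA fewer cells of a type and less RNA per cell cannot be told apart, and the part of tissue makeup in the levels below was not tested.

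The 4 lumenal chaperone genes did not share a direction. Hspa5 (chr2:34771970-34777547, plus strand) encodes BiP, the Hsp70 of the ER lumen that also holds the sensors inactive. It had 92.9 FPKM in Taf7l KO BAT and 134 FPKM in WT BAT. The KO level was 0.691 times that of WT (interval 0.673 to 0.709), lower than in WT but short of the 1.5-fold limit. Its log2 ratio of -0.53 was above that of 15.1% of all genes compared. The table holds Hspa5 in 2 rows of the same span, with 48.3 and 44.6 FPKM in KO and 69.8 and 64.7 FPKM in WT. Both rows gave nearly the same ratio of KO over WT. To within 1.1-fold, so did 96.7% of 1689 such pairs over the table, so the rows are not separate support.

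Dnajb9 (chr12:44205559-44210326, minus strand) encodes ERdj4, a DnaJ partner of BiP that is induced through XBP1. It had 19.2 FPKM in KO, against 32.2 FPKM in WT, and the KO level was 0.596 times that of WT (interval 0.558 to 0.637). Its log2 ratio of -0.74 was the lowest of the 10, above that of 7.35% of all genes compared. It was at about 2504 reads in KO and 1385 in WT, so the difference is larger than counting error. The joint correction for GC content and transcript length given below moved this gene further than any other of the 10.

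Hsp90b1 (chr10:86690209-86705509, minus strand) encodes GRP94, the Hsp90 of the ER. It was nearly level, with 57.2 FPKM in KO, against 54.2 FPKM in WT, a fold of 1.06 (interval 1.017 to 1.096). Its row overlapped by 3966 bp a transcript without a gene symbol, which had 1.16 FPKM in KO, against 0.949 FPKM in WT. Pdia4 (chr6:47796141-47813430, minus strand) encodes ERp72, a disulfide isomerase. It had 10.0224 FPKM in KO, against 7.80 FPKM in WT, a fold of 1.28 (interval 1.16 to 1.43), so it lay on the other side of WT from Hspa5. A second Pdia4 row, spanning 77 bp, was at 0 in both libraries.

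The balance between the chaperones can also be given within each library, where no scaling between libraries enters. Such ratios restate the folds given above and are not separate support. Hspa5 stood at 1.62 times Hsp90b1 in KO and at 2.48 times in WT. Against Pdia4 it stood at 9.27 times in KO and 17.2 times in WT. Hspa5 and Dnajb9 kept closer to each other, with a ratio of 4.84 in KO and 4.17 in WT. FPKM is per length, so these ratios compare levels of different genes on one scale. They are not corrected for GC content and length. After the correction given below, Hspa5 stood at a log2 ratio of KO over WT of -0.38 and Dnajb9 at -0.14, the reverse of their order as deposited.

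Herpud1 (chr8:94386438-94395377, plus strand) encodes a membrane protein of ER-associated degradation, which carries misfolded proteins out of the ER, and its window above holds both ERSE-II and the C/EBP-ATF core. It was level between the pools, with 33.8 FPKM in KO, against 34.2 FPKM in WT, a fold of 0.989 (interval 0.932 to 1.05). Its 2 rows of the same span had 17.1 and 16.7 FPKM in KO and 17.2 and 16.9 FPKM in WT.

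Xbp1 (chr11:5520659-5525893, plus strand) encodes the transcription factor of the IRE1 branch, active once the mRNA has been spliced by IRE1. It had 65.0176 FPKM in KO, against 63.4 FPKM in WT, and its log2 ratio was 0.036. Of this level 57.7% in KO and 60.4% in WT came from a row spanning 705 bp, inside the span of the gene. The 2 rows over the full span had 14.0 and 13.5 FPKM in KO and 12.8 and 12.3 FPKM in WT, a log2 ratio of 0.13 for each. The fold on estimated reads had an interval of 0.998 to 1.12. The full-span rows stood at 1.03 to 1 in KO and 1.04 to 1 in WT. Over the table, 65.4% of 1689 such pairs of rows in KO and 65.3% in WT lay within 1.1-fold of each other, so the division between rows of one span carries little information, and the spliced share of Xbp1 could not be read from these values.

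Atf4 (chr15:80255184-80257541, plus strand) encodes the main transcription factor of the integrated stress response. It had 40.7 FPKM in KO, against 46.3 FPKM in WT, a fold of 0.880 (interval 0.834 to 0.929). Ddit3 (chr10:127290774-127296288, plus strand) encodes CHOP, a factor induced by ATF4 and linked to cell death under lasting ER stress. It had 32.5 FPKM in KO, against 25.1 FPKM in WT, a fold of 1.295 (interval 1.17 to 1.44). This was the highest ratio of the 10, with a log2 value of 0.37 that was above 73.4% of all genes compared. Within the libraries Ddit3 stood at 0.797 times Atf4 in KO and 0.542 times in WT. The row of Ddit3 overlapped that of Mars by 68 bp. Mars, a tRNA synthetase gene, had 18.8 FPKM in KO, against 15.0 FPKM in WT, and reads of the overlap cannot be told apart without strand.

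The effector genes downstream of these factors differed little between the pools as deposited. After the correction for GC content and length given below, Trib3 stood at a log2 ratio of -0.43 and Asns at 0.13. Trib3 (chr2:152337422-152344032, minus strand) encodes a pseudokinase that is induced by CHOP with ATF4 and restrains both. It was the lowest of the 10 in level, with 3.88 FPKM in KO, against 4.37 FPKM in WT, a fold of 0.889 (interval 0.756 to 1.05). Asns (chr6:7675169-7693254, minus strand) encodes asparagine synthetase, an amino acid response gene. It had 27.8 FPKM in KO, against 29.1 FPKM in WT, a fold of 0.957 (interval 0.899 to 1.021). Against Atf4, Trib3 stood at 0.0953 in KO and 0.0944 in WT, and Asns at 0.683 in KO and 0.628 in WT. Trib3 stood at 0.120 times Ddit3 in KO and 0.174 times in WT.

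The order of levels was alike in both pools. Hspa5, Xbp1, Hsp90b1, Atf4 and Herpud1 came first in this order in KO and in WT, and Asns, Pdia4 and Trib3 were at the same places in both. The place of Xbp1 rests on its row spanning 705 bp, with 57.7% of its level in KO and 60.4% in WT. Without that row Xbp1 would lie lower in the order. Ddit3 and Dnajb9 exchanged places, Ddit3 being the sixth in KO and the eighth in WT. Hspa5 was above 93.5% of the genes compared in KO and 94.8% in WT, and Trib3 above 37.3% in KO and 42.5% in WT. With 1 library per genotype there is no spread against which neighbours in this order could be set apart.

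**Figure D2:**
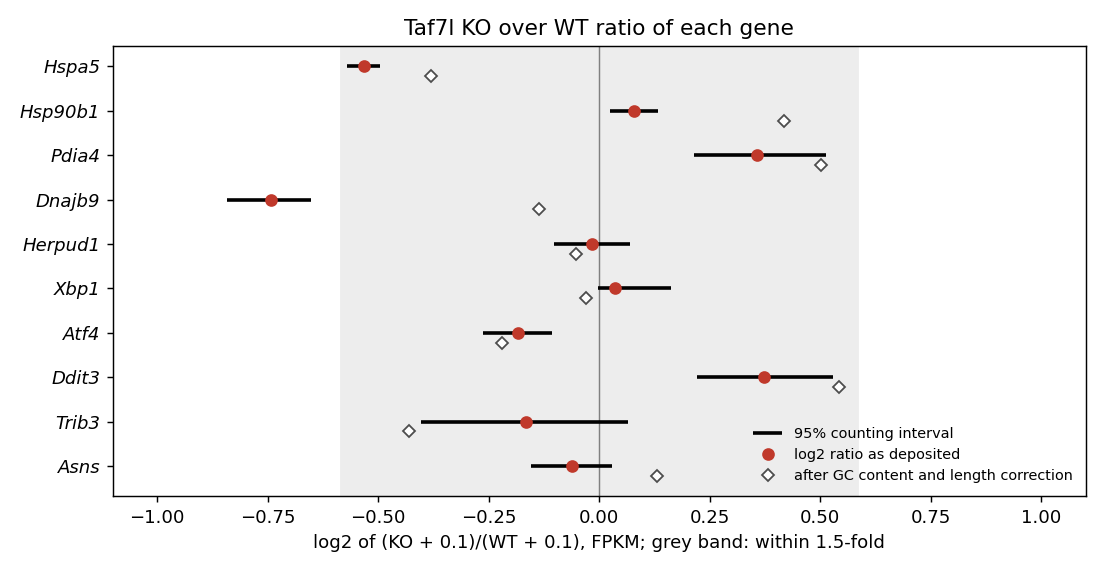
Log2 ratio of KO over WT for each of the 10 genes (filled circles), with the 95% counting interval of the fold on estimated reads (bars) and the ratio after correction for GC content and transcript length (open diamonds). Dnajb9 at -0.74 is the only filled circle outside the grey band of 1.5-fold, and its diamond lies inside it at -0.14.

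The ratios of KO over WT followed the GC content of the transcripts across the table. In the decile of lowest GC content (median 40.3%, 1042 genes) the median log2 ratio was -0.48, and in the decile of highest GC content (59.9%, 1042 genes) it was 0.42. Dnajb9, with 40.6% GC, belongs among the lowest, with 5.71% of genes below it, and Hspa5 with 45.6% GC has 24.1% below it. Trib3 with 58.2% GC has 89.4% of genes below it. After correction for a smooth trend with GC content and transcript length, the log2 ratio of Dnajb9 was -0.14 and that of Hspa5 -0.38, so that none of the 10 was 1.5-fold lower. Shares of all genes beyond 1.5-fold were computed before this correction only. Corrected counts, here and for the lists below, therefore have no such share beside them. Corrected values were 0.42 for Hsp90b1, 0.50 for Pdia4 and 0.54 for Ddit3, which were higher in KO both ways, and -0.43 for Trib3 and -0.22 for Atf4, which were lower both ways. Herpud1 stood at -0.052, Xbp1 at -0.029 and Asns at 0.13. The difference in balance between Hspa5 and Hsp90b1, both of low GC content, was present in the corrected values as well.

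**Figure D3:**
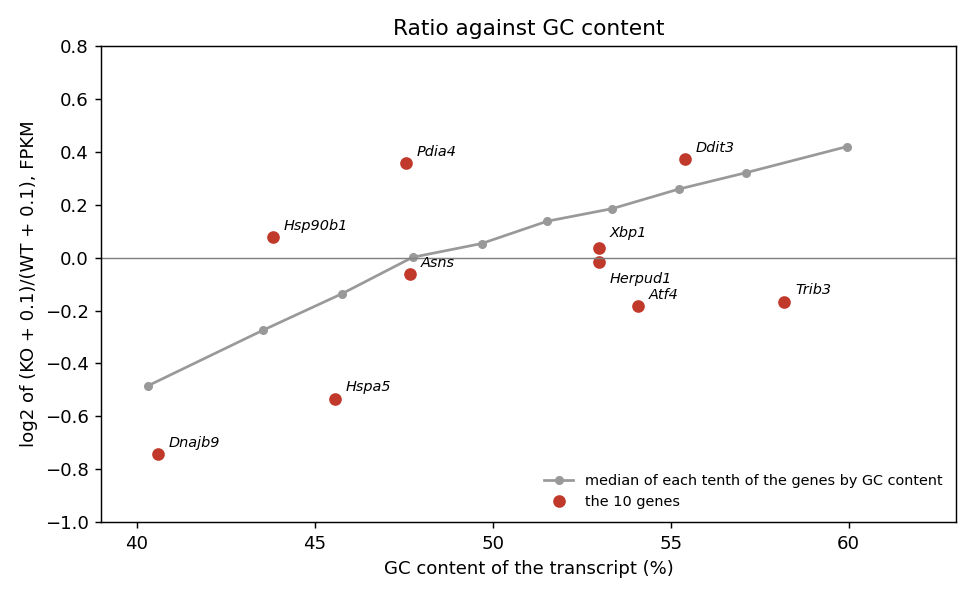
Log2 ratio of KO over WT against the GC content of the transcript in percent, for the 10 genes (named points) and as the median of each GC decile of the genes (grey line). The line climbs from -0.48 to 0.42. Dnajb9 and Hspa5 lie below it at the low end and Trib3, Atf4, Xbp1 and Herpud1 at the high end, while Hsp90b1 and Pdia4 lie above it.

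Other genes of the same pathways stood on 9 lists with 127 genes, of which 114 were compared. At least 1.5-fold higher in KO were 12 of these and at least 1.5-fold lower were 12, with 1 at least 3-fold higher, none 3-fold lower and a median log2 ratio of 0.090. Both 1.5-fold shares are read against the 16.5% and 12.7% given above. Of 17 further ER lumen chaperones and folding enzymes, 1 was at least 1.5-fold lower and none higher, with a median of 0.10. Ppib, an ER prolyl isomerase, was the lower one, with 49.2 FPKM in KO, against 75.3 FPKM in WT. After the correction for GC content and length none of the 17 was lower, Ppib standing at -0.31, and 1 was higher, Ero1l at 0.61, an ER oxidase gene named after its values were seen. Calr, the lectin chaperone calreticulin, had 106 FPKM in KO, against 88.1 FPKM in WT, and Pdia3, a disulfide isomerase, 48.9 FPKM in KO, against 46.6 FPKM in WT. Creld2, a further disulfide isomerase induced by ER stress, had the highest ratio of the list, with 8.61 FPKM in KO, against 6.50 FPKM in WT.

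Genes of ER-associated degradation went both ways. Of 14 compared, 1 was at least 1.5-fold higher and 2 were lower, with a median of 0.091. Syvn1, the ubiquitin ligase HRD1, had 15.8 FPKM in KO, against 9.33 FPKM in WT. Derl1 and Derl2, channel proteins that work with it, had 28.2 and 18.5 FPKM in KO, against 44.6 and 31.3 FPKM in WT. Vcp, the ATPase that extracts the substrates, had 74.5 FPKM in KO, against 57.3 FPKM in WT. After the correction for GC content and length, Syvn1 stood at a log2 ratio of 0.37, Derl1 at -0.69 and Derl2 at -0.40, so that only Derl1 of the 3 was beyond 1.5-fold.

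Among the sensors and membrane-bound factors, 2 of 9 were at least 1.5-fold higher and none lower, with a median of 0.28. After the correction for GC content and length the median was 0.071, against 0.065 for all genes compared, and the count was the same. Creb3l1, a factor of the ATF6 family known from bone and secretory cells, had 2.62 FPKM in KO, against 0.521 FPKM in WT and was the gene beyond 3-fold. Wfs1, an ER membrane protein, had 3.89 FPKM in KO, against 1.55 FPKM in WT, and was named after its values were seen. Of the sensors themselves, Eif2ak3 (PERK) had 2.37 FPKM in KO, against 1.93 FPKM in WT, Atf6 had 4.04 FPKM in KO, against 3.93 FPKM in WT, and Ern1 (IRE1) was below the limit for comparison, with 0.270 FPKM in KO, against 0.0984 FPKM in WT. These 3 too were named after their values were seen.

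For translation control through eIF2, 11 genes were compared, of which 1 was at least 1.5-fold higher and 3 were lower, with a median of 0.052. Eif2ak1, the heme-sensing eIF2 kinase, had 15.3 FPKM in KO, against 8.26 FPKM in WT. Ppp1r15b, a subunit that directs phosphatase to eIF2, had 21.7 FPKM in KO, against 35.0 FPKM in WT. The other lower genes were Eif2s1, the phosphorylated subunit, and Eif2b2, a subunit of the exchange factor, with log2 ratios of -0.67 and -0.59, both named after their values were seen. After the correction for GC content and length Eif2s1 stood at -0.17 and Eif2b2 at -0.64.

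Stress regulators downstream of ATF4 also went both ways, with 2 of 8 at least 1.5-fold higher, 2 lower and a median of 0.086. Nupr1, a small stress-induced nuclear protein, had 50.9 FPKM in KO, against 30.6 FPKM in WT. Atf3, a factor of acute stress, had 1.22 FPKM in KO, against 2.61 FPKM in WT. The other higher gene was Sesn2 at a log2 ratio of 0.68 and the other lower gene Vldlr at -0.73, both named after their values were seen. Corrected for GC content and length, Sesn2 stood at 0.24 and Vldlr at -0.55, which left 1 higher (Nupr1) and 1 lower (Atf3). Cebpb and Atf5 had 127 and 56.1 FPKM in KO, against 114 and 42.5 FPKM in WT. Fgf21, a hormone of the response in several tissues, was at 0.0684 FPKM in KO and listed at 0 in WT, and Gdf15 was at 0.0773 FPKM in KO, against 0.0780 FPKM in WT, both below the limit for comparison and named after their values were seen. Of 9 genes of amino acid synthesis and transport, 1 was at least 1.5-fold higher and 2 were lower, with a median of -0.060. Cth, which makes cysteine, had 1.28 FPKM in KO, against 2.96 FPKM in WT, whereas Got1, an aspartate transaminase, had 14.3 FPKM in KO, against 8.49 FPKM in WT. Slc3a2, the heavy chain of amino acid carriers, was level with 55.9 FPKM in KO, against 54.6 FPKM in WT.

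Of 20 cytosolic aminoacyl-tRNA synthetases, many of them ATF4 targets, 2 were at least 1.5-fold higher and 1 was lower, with a median of 0.22. Vars had 6.64 FPKM in KO, against 2.47 FPKM in WT, and Dars had 25.7 FPKM in KO, against 44.7 FPKM in WT. After the correction for GC content and length, Dars stood at a log2 ratio of -0.19 and Vars at 0.83, and 3 of the 20 were higher and none lower. The share of all genes that far from WT after the correction was not computed, so no direction is read from this count. Gars and Sars, the most abundant beside Dars, had 46.5 and 33.7 FPKM in KO, against 41.6 and 31.0 FPKM in WT.

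**Figure D4:**
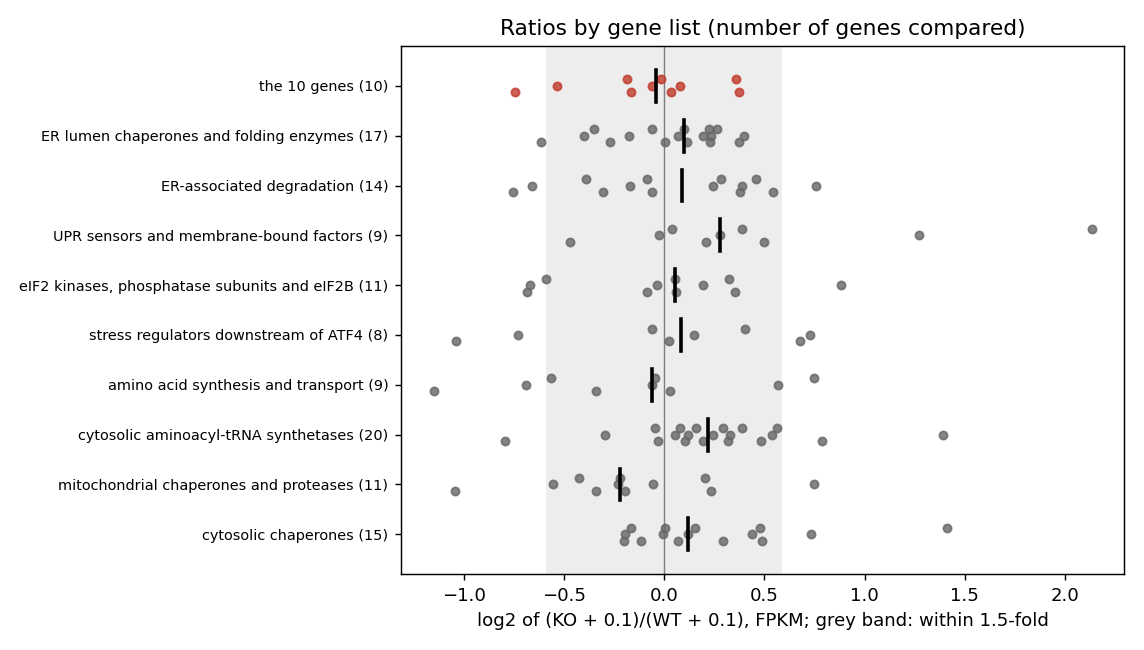
Log2 ratio of KO over WT for each gene compared (points) in the 10 genes and in the 9 lists of related genes, with the median of each group (bar) and a grey band of 1.5-fold. Ratios are shown without correction for GC content and length. The medians lie between -0.22 and 0.28, and the point farthest from 0 is Creb3l1 at 2.13.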

How the data were processed

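The deposited values are FPKM that the authors made with TopHat 1.4.0 and cufflinks 1.3.0 (1 iteration of the likelihood step), with 1 row for each of 55350 UCSC transcripts and 1 column for each library. The paper and the processing notes name mm10, but positions of these genes in the table differ from GRCm38, so positions are those of GENCODE M21 and RefSeq (GRCm38). FPKM were summed per gene name with pandas 2.3.3 and numpy 2.4.6 (Python 3.11.15, scipy 1.17.1, scikit-learn 1.9.0, matplotlib 3.10.9). The pseudocount was 0.1 FPKM and the minimum 1 FPKM in at least 1 library.

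Depth was taken from 1180 genes with 1 row and a matching GENCODE transcript, with fragments of 200 bp (SD 80 bp). For KO this estimate exceeds the read number that the labels state. Row lengths were taken from the GENCODE transcript nearest in span, so read numbers are approximate.

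With 1 library per genotype no test was run. GC content and length were known for 85.6% of the genes compared, 2017 of them through older symbols in RefSeq, and for all 10. The procedure was tested on simulated data. The simulated reads had known folds, counting error and a straight-line GC trend, with no spread between pools. They cannot show whether the correction is right for these data.

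Named genes are the 10, Taf7l, and in each list the 3 highest in mean level and the highest and lowest in ratio, save exceptions stated. Of the cell marker lists, mainly sums are given. The genes and lists were chosen with earlier results of these data known.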

Additional observations from a re-analysis of the deposited data

How the results depend on the processing

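The results were computed again under 11 other settings, 1 of them (rows under 0.5 times the longest span of a gene left out) chosen after seeing the data. Shifts of log2 values and of counts were judged against a limit of 1.5-fold. The number of the 10 genes at least 1.5-fold lower was 0 after the correction for GC content and transcript length and 1 under every other setting run. The log2 ratio of Dnajb9 was then -0.14. GC content and length were corrected together, so their parts in this cannot be told apart. By that correction the counts of genes beyond 1.5-fold also differed for the lists of ER lumen chaperones (1 higher and 0 lower), ER-associated degradation (0 and 1), eIF2 genes (1 and 2), stress regulators (1 and 1), synthetases (3 and 0), mitochondrial chaperones (1 and 0) and cytosolic chaperones (3 and 0 of 14), and not for the others of the 9. For amino acid genes the count was the same, but not the genes in it. Psph went from a log2 ratio of -0.57 to -0.59, past the limit. Slc38a2, named after its values were seen, went from -0.69 to -0.47, back within it. The number of the 10 genes at least 1.5-fold higher was 0 under all 11. The median log2 ratio of the 10 ranged from -0.059 to 0.047. Of 109 ratios of single genes, 108 stayed within 1.5-fold, as did all 186 list medians. That limit is wider than most of the values judged by it, so staying within it says little. List medians changed sign for eIF2 genes under 1 setting, amino acid genes under 2, macrophage markers under 1 and markers of all fat cells under 4. The median of the sensors and membrane-bound factors ranged from 0.071 to 0.39. Signs of ratios near 0 changed for Herpud1 under 1 setting, Xbp1 under 2 and Asns under 2. With a minimum of 10 FPKM Trib3 was not compared. Depth limits Trib3 most, with about 209 reads in WT. No paired analysis was possible because each genotype was sequenced as a single pool, which also leaves no replicate to omit.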

Other observations

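Chaperones of the cytosol and of mitochondria were also listed. Of 15 cytosolic chaperone genes, 2 lay at least 1.5-fold above WT in KO BAT and none below, with a median log2 ratio of 0.12. Hsp90ab1, the constant form of cytosolic Hsp90, had 390 FPKM in KO, against 147 FPKM in WT, while its inducible partner Hsp90aa1 had 57.6 FPKM in KO, against 57.8 FPKM in WT. After the correction for GC content and length Hsp90ab1 stood at 1.37 and Hsp90aa1 at 0.30. Hspa8, the constant Hsp70, had 484 FPKM in KO, against 524 FPKM in WT. The heat-inducible Hspa1b had 4.18 FPKM in KO, against 4.82 FPKM in WT.

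Of 11 genes of mitochondrial chaperones and proteases, 1 was at least 1.5-fold higher and 1 lower, with a median of -0.22. Hspd1, the mitochondrial Hsp60, had 266 FPKM in KO, against 159 FPKM in WT. Hspe1, its co-chaperonin, which shares a promoter region with it, had 377 FPKM in KO, against 443 FPKM in WT. Their corrected log2 ratios were 0.93 and 0.14. Yme1l1, a protease of the inner membrane, had 12.4 FPKM in KO, against 25.7 FPKM in WT, with a corrected log2 ratio of -0.44.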
